A study of Homo sapiens with 4 samples.

Results

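ADAM proteases, matrix metalloproteases (MMP) and their tissue inhibitors (TIMP) were followed in HCT116 cells after silencing of CTNNB1, the gene for beta-catenin. The group was set as 10 genes by name: ADAM8, ADAM9, ADAM10, ADAM17, ADAM19, MMP1, MMP7, MMP14, TIMP1 and TIMP2. A gene was taken where the platform's annotation gave a transcript cluster (the array's unit of measurement) that single symbol, and 9 of the 10 genes had such a cluster, of 22411 genes in all. TIMP2 appeared only on a cluster shared with another gene and is not analysed here. Each of the 9 genes had 1 cluster. The cluster was selected on its mean level over the 4 arrays, and the genes were chosen by name with results of the same comparison in view, so their values describe a chosen group and are no independent evidence for it.

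HCT116 is an established line of human colon cancer cells, and a known activating mutation sits in its CTNNB1 gene. Lipofectamine RNAiMAX carried 50 nM of siRNA into the cells for 48 h, a control siRNA in 1 group and CTNNB1 siRNA in the other. Both groups had 2 biological replicates with 1 array each. The labels name no further treatment of either group, give no siRNA sequences and do not say whether a pool was used. A single cell line stands for colon cancer here.

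ADAM and MMP proteins are zinc-dependent proteases made as inactive precursors. Most ADAMs of this group sit in the cell membrane and release the outer part of other membrane proteins, a step called shedding, which frees growth factors and starts Notch signalling. MMPs cut collagens, laminins and other proteins of the matrix, and TIMPs bind the active site and block it. In the intestine, MMP7 is a textbook target gene of beta-catenin in adenomas, and ADAM10 and ADAM17 serve Notch and EGF receptor signalling of the epithelium.

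The arrays matched their labels. CTNNB1 fell by 3.56 on the log2 scale (SE 0.096, adjusted p 1.34e-04 in limma), from 10.06 and 10.20 log2 units on the control arrays to 6.50 and 6.65. Replicate arrays correlated across tested genes with r of 0.997 in both groups, a description only, since genes are not independent replicates. Of 8 markers of colon epithelium 5 lay above the level filter of 4.29 log2 units, among them EPCAM, KRT8, KRT18 and KRT19, while CDX1, CDX2 and VIL1 lay below it. EPCAM, KRT8 and KRT18 passed the test as higher after CTNNB1 siRNA. Of fibroblast markers 2 of 7 lay above the filter (COL1A1 and DCN), of leukocyte markers 2 of 6 (CD68 and CD3E) and of endothelial markers 1 of 4 (CDH5). The others, among them PTPRC, PDGFRB, LUM, PECAM1 and VWF, lay below it. The log2 levels of the leukocyte markers summed to 26.35 and 26.47 on the control arrays and to 28.00 and 27.79 after CTNNB1 siRNA, with CD68, a lysosomal protein, as the marker that rose. The part of this in the results below was not tested.

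Of 6 tested protease genes 3 passed the test after CTNNB1 silencing, and they did not share a direction. ADAM19 fell 10.9-fold, ADAM17 rose 1.96-fold and ADAM9 rose 1.73-fold. ADAM10, ADAM8, MMP14 and TIMP1 did not pass the test, and MMP7 and MMP1 lay below the level filter in both groups. The test was limma over the 15679 genes above that filter, with p-values adjusted over all of them and a threshold of 0.05. It called 30.3% of these genes, 14.2% as higher and 16.1% as lower, so a call by itself was common. Of the 7 tested genes of the group 2 were called higher and 1 lower, and the median log2 fold change was 0.11, against -0.01 over all tested genes. In bulk RNA, fewer cells that express a gene and less RNA per cell cannot be told apart.

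**Figure D1:**
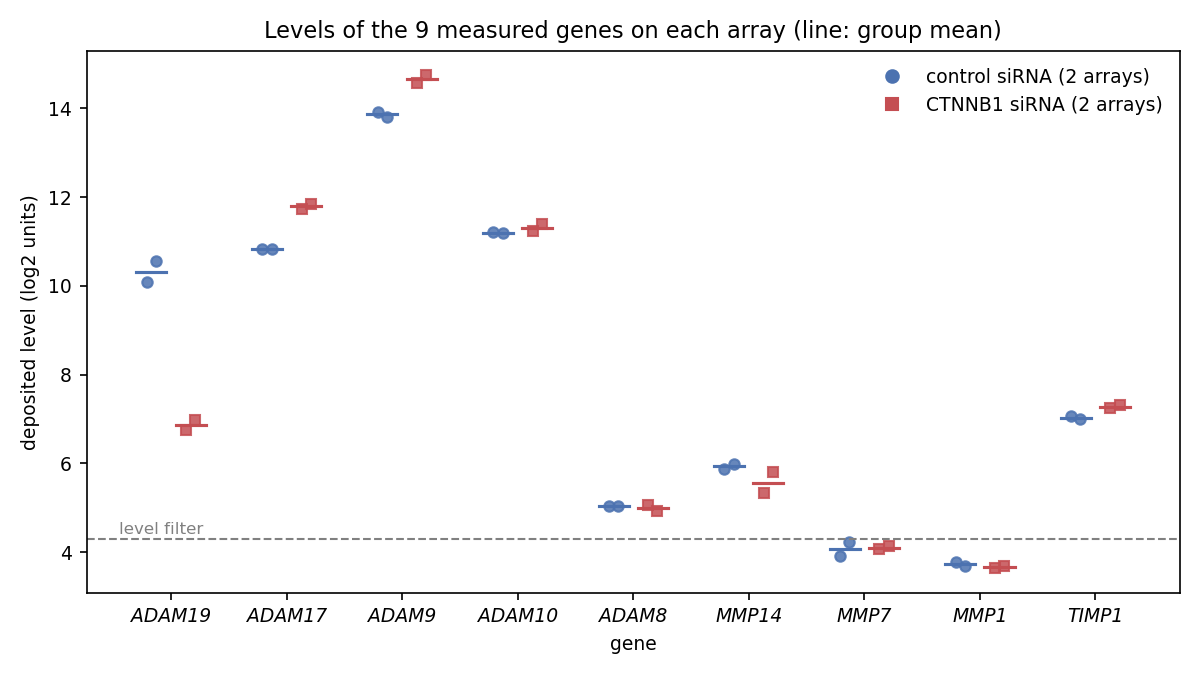
Deposited levels in log2 units (vertical axis) of the 9 measured genes (horizontal axis). Circles are the 2 control arrays, squares the 2 CTNNB1 siRNA arrays, short lines the group means, and the dashed line is the level filter at 4.29. The ADAM19 squares, at 6.75 and 6.98, lie far below its circles, at 10.08 and 10.55, while the ADAM17 and ADAM9 squares lie above their circles.

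ADAM19, also called meltrin beta, is a membrane protease known for its part in mouse heart development and for releasing neuregulins. Its level was 10.08 and 10.55 log2 units on the control arrays and 6.75 and 6.98 after CTNNB1 siRNA. The groups lay more than 3 units apart, and the 2 arrays within a group differed by less than 0.5 units. The log2 fold change of ADAM19 was -3.45 (95% interval -3.88 to -3.02, SE 0.172, adjusted p 3.35e-04 in limma). Of all tested genes 5 had a larger fall, which placed ADAM19 in rank 6. Its level after CTNNB1 siRNA stayed above the level filter, so the fall was measured at both ends. NRG1, which encodes neuregulin 1, was picked out after its value was seen. It had a log2 fold change of -0.10 and did not pass (adjusted p 0.4 in limma). NRG1 lay near the level filter, at 4.67 and 4.66 log2 units on the control arrays and 4.59 and 4.54 after CTNNB1 siRNA. A fall from this level was hardly measurable, so the value does not show that an expressed gene stayed unchanged.

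ADAM17, also known as TACE, is the main sheddase of tumour necrosis factor and of several EGF receptor ligands. Its level was 10.82 and 10.83 log2 units on the control arrays and 11.74 and 11.85 after CTNNB1 siRNA. Both treated arrays lay above both controls by about the same amount. ADAM17 rose by 0.97 log2 units (SE 0.081, 95% interval 0.77 to 1.17, adjusted p 9.94e-04 in limma), and 3.1% of tested genes had a larger rise.

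ADAM9 encodes meltrin gamma, a widely expressed membrane protease. It was at 13.91 and 13.81 log2 units with control siRNA and at 14.56 and 14.74 with CTNNB1 siRNA, again with no overlap. The rise was 0.79 log2 units (SE 0.096, 95% interval 0.55 to 1.03, adjusted p 0.00288 in limma), and 4.66% of tested genes rose more.

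ADAM10 is the closest relative of ADAM17 in structure and the protease that makes the first cut in ligand-bound Notch receptors. Its level was 11.22 and 11.18 log2 units on the control arrays and 11.23 and 11.39 after CTNNB1 siRNA. The lower treated array lay just above the higher control array. The log2 fold change was 0.11 (SE 0.089, 95% interval -0.11 to 0.33, adjusted p 0.433 in limma), so a rise as large as that of ADAM17 lies outside the interval. The log2 difference of ADAM17 and ADAM10 within an array shifted by 0.86 units between the groups. This describes these 4 arrays and does not say which gene is more abundant, since their probes differ. For ADAM9 against ADAM10 the shift was 0.68 log2 units, and for ADAM17 against ADAM9 it was 0.18. An exact 2-sided permutation test of 2 against 2 arrays cannot go below p = 0.333, and each of these 3 shifts had that smallest value. The test therefore cannot decide whether the genes of a pair changed unequally.

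ADAM8 encodes a protease best known from leukocytes. It was at 5.03 and 5.04 log2 units with control siRNA and at 5.06 and 4.93 with CTNNB1 siRNA, so the groups overlapped. The log2 fold change was -0.04 (95% interval -0.25 to 0.17, adjusted p 0.791 in limma), and it was 0.03 without CTNNB1 siRNA replicate 2.

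Among the matrix metalloproteases of the group, MMP14 alone lay above the level filter. It encodes a membrane-anchored collagenase that activates the precursor of MMP2. Its level was 5.88 and 5.99 log2 units on the control arrays and 5.34 and 5.80 after CTNNB1 siRNA. Both treated arrays were lower than both controls, but they differed from each other by more than the higher of them differed from the controls. The log2 fold change was -0.37 (SE 0.159, 95% interval -0.76 to 0.03, adjusted p 0.15 in limma). It was -0.14 without CTNNB1 siRNA replicate 1 and -0.60 without CTNNB1 siRNA replicate 2.

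MMP7, or matrilysin, is made by epithelial cells, and MMP1 is the interstitial collagenase. MMP7 was at 3.91 and 4.22 log2 units with control siRNA and at 4.07 and 4.13 with CTNNB1 siRNA. MMP1 was at 3.77 and 3.69 with control siRNA and at 3.64 and 3.69 with CTNNB1 siRNA. For both genes the groups overlapped below the level filter of 4.29, so neither was in the main test. A fall from these levels was not measurable on these arrays. Without a level filter limma gave log2 fold changes of 0.035 for MMP7 and -0.065 for MMP1 (adjusted p 0.921 and 0.703).

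TIMP1, a secreted inhibitor of most MMPs and of ADAM10, was the inhibitor measured in the group. Its level was 7.06 and 6.99 log2 units on the control arrays and 7.24 and 7.32 after CTNNB1 siRNA. The treated arrays lay above the controls by a small margin. The log2 fold change was 0.26 (SE 0.081, 95% interval 0.05 to 0.46), which did not pass in limma (adjusted p 0.0643). After a further quantile normalization of the deposited values limma gave an adjusted p of 0.0438, which passes. Across the 7 tested genes, 4 were higher on both treated arrays than on both controls and 2 were lower on both. Such separation without overlap was seen in 28.8% of all tested genes upward and in 34.2% downward, 63% together.

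**Figure D2:**
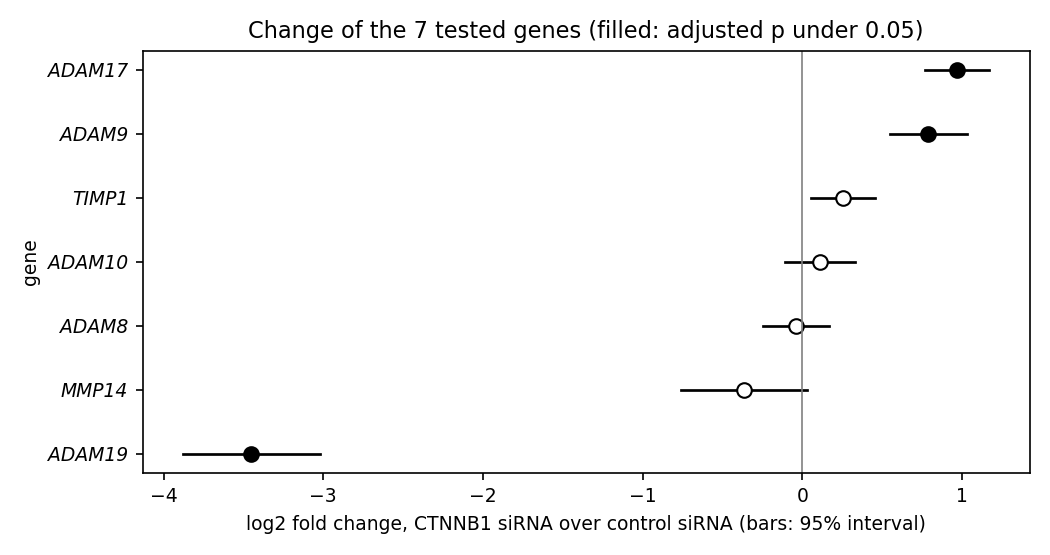
Log2 fold change after CTNNB1 siRNA relative to control (horizontal axis) with its 95% interval for the 7 tested genes (vertical axis). Filled points passed an adjusted p of 0.05 in limma, which were ADAM17 at 0.97, ADAM9 at 0.79 and ADAM19 at -3.45, and open points did not.

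With any 1 of the 4 arrays left out, 1 group holds a single array. The calls of ADAM19, ADAM17 and ADAM9 were then not kept in limma, nor was any other call of the whole table. The adjusted p then lay between 0.0553 and 0.076 for ADAM19, between 0.0553 and 0.076 for ADAM17 and between 0.0624 and 0.0905 for ADAM9. The 3 genes kept an unadjusted p under 0.05 with each array left out, and their log2 fold changes lay between -3.69 and -3.21, between 0.92 and 1.03 and between 0.70 and 0.88.

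Promoter sequence was set beside these values because the promoters of MMP genes are textbook examples of control by AP-1 (FOS and JUN dimers), ETS factors of the PEA3 type, and TCF/LEF, the DNA-binding partners of beta-catenin. RefSeq's table for GRCh38.p14 held windows from 250 bases before to 50 bases after the start site for 7 genes of the group. Each window was searched on both strands for TGANTCA (AP-1), CTTTGA (TCF/LEF) and AGGAAG (ETS), and no matches overlapped. Of all 35116 promoters in the table, 7.71% held the AP-1 motif, 12.9% the TCF/LEF motif and 33.6% the ETS motif. The 250 bases before the start are given for the gene that fell, for the gene with the largest rise in the group, and for MMP7, on the gene's strand, 5′ to 3′, with the matches in capitals. They lie on the minus strand at chr5:157575776-157576025 for ADAM19, chr2:9555831-9556080 for ADAM17 and chr11:102530748-102530997 for MMP7.
ADAM19: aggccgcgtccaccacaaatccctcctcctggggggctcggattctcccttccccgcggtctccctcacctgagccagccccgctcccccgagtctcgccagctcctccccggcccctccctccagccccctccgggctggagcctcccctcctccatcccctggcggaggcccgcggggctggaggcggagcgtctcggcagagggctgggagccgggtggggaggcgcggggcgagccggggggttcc
ADAM17: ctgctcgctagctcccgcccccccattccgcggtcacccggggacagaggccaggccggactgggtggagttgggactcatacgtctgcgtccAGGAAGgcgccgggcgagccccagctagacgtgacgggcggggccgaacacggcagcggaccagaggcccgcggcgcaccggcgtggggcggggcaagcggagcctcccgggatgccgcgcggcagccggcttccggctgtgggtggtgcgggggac
MMP7: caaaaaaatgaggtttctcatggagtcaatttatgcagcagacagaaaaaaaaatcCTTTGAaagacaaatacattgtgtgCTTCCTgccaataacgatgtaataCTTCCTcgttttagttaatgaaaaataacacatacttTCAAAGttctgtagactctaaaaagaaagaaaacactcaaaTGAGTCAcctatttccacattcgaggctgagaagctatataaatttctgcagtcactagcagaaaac
The MMP7 window held 2 matches of the TCF/LEF motif, beginning 194 and 108 bases before the start site, 1 AP-1 match at 67 bases and 2 ETS matches at 169 and 145 bases. MMP7 thus had a match of all 3 motifs, while its level lay below the filter in both groups. The ADAM19 window held none of the 3 motifs, and the ADAM17 window held 1 ETS match, 157 bases before the start. ADAM10 had 2 ETS matches and TIMP1 had 1, and the windows of ADAM8 and MMP14 had none. The windows also differed in base composition, with 75.7% G and C for ADAM19, 74.7% for ADAM17 and 35.7% for MMP7, against a median of 58.7% over all promoters in the table. A match describes letters in this window and is not a binding site, and the absence of a match says nothing of the factor.

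**Figure D3:**
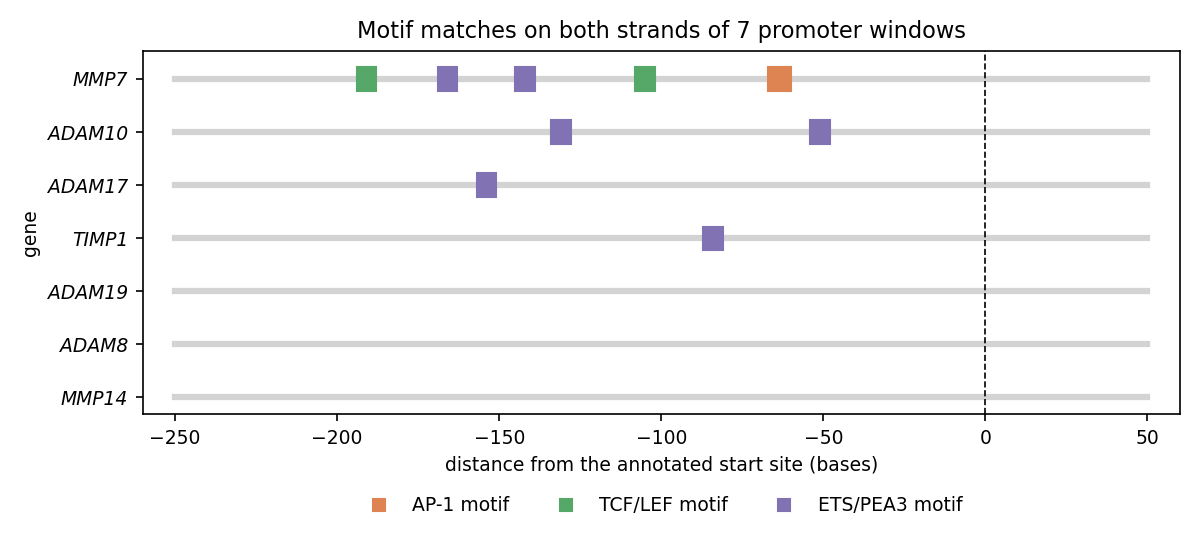
Motif matches (coloured boxes) along 7 promoter windows (grey bars, vertical axis), by distance in bases from the annotated start site (horizontal axis, dashed line at the start). MMP7 carries 5 matches of all 3 motifs, and the windows of ADAM19, ADAM8 and MMP14 carry none.

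The wider protease families were read from lists of their other members. With the 10 genes above they made 79 genes, of which 33 were tested, 8 called higher, 3 called lower and 22 not called. That is 33.3% called, close to the 30.3% of all tested genes. The median log2 fold change of the 33 was 0.02, and ADAM19 had the lowest value among them. A level below the filter was common, with 42 of the 75 genes that had a cluster with 1 symbol. Over all named genes the filter was set to leave out 30%.

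Among 7 tested other ADAM genes 2 rose and 1 fell, 42.9% against 30.3% of all tested genes, a difference that was not tested. ADAM22, which encodes a receptor without protease activity for LGI proteins of synapses, went from 8.95 and 9.04 log2 units to 8.05 and 8.38 and fell by 0.78 (SE 0.126, adjusted p 0.00723 in limma). ADAM20 and ADAM21, related genes known from testis whose signals an array may mix, rose by 0.60 (adjusted p 0.00756 in limma) and by 0.34 (adjusted p 0.0425). ADAM21 was at 4.14 and 4.11 log2 units on the control arrays, below the level filter, so it entered the test through its treated arrays, and it did not pass without a level filter (adjusted p 0.056 in limma). ADAM15 had a log2 fold change of 0.14 and did not pass (adjusted p 0.355 in limma). ADAM12 lay below the filter, between 3.73 and 3.80 log2 units on all arrays.

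None of the 4 tested other MMP genes passed in limma, against 30.3% of all tested genes, and 4 genes are too few to read this as a difference. Of the 4 genes 0 had an unadjusted p under 0.05 in limma, against 6338 of all 15679. A further 15 of the list lay below the filter. The gelatinases MMP2 and MMP9 were among these, with MMP2 between 4.05 and 4.13 log2 units and MMP9 between 3.93 and 4.01. The largest difference among the 15, picked out after its values were seen, was that of MMP19, which went from 3.84 and 3.90 log2 units to 4.45 and 4.47, and which was called higher in limma without a level filter (log2 fold change 0.59, adjusted p 0.00458). MMP15, a membrane-type MMP like MMP14, was at 6.34 and 6.59 log2 units with control siRNA and at 6.39 and 6.56 with CTNNB1 siRNA, a log2 fold change of 0.01 (95% interval -0.28 to 0.30, adjusted p 0.967 in limma).

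Of 6 tested other inhibitors 1 rose in limma, 16.7% called against 30.3% of all tested genes. None fell, also 0 at an unadjusted p under 0.05. RECK, a membrane-anchored inhibitor of MMPs that also acts as a co-receptor for Wnt7, went from 5.70 and 5.84 log2 units to 6.44 and 6.74. Its rise was 0.82 log2 units (SE 0.123, 95% interval 0.51 to 1.13, adjusted p 0.00571 in limma). TIMP3, which inhibits ADAM17, had a log2 fold change of 0.02 (95% interval -0.17 to 0.21, adjusted p 0.891 in limma), with levels between 4.71 and 4.76 log2 units. TIMP4 lay below the filter, at 3.97 and 3.99 log2 units on the control arrays.

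ADAMTS and ADAMTS-like genes encode secreted proteins related to the ADAMs and are counted together as ADAMTS genes. Of 9 tested, 3 rose (ADAMTSL5, an ADAMTS-like gene, among them) and 1 fell, 44.4% against 30.3% of all tested genes. ADAMTS16 rose by 1.02 log2 units (SE 0.077, adjusted p 7.88e-04 in limma), from 5.53 and 5.56 to 6.60 and 6.54. ADAMTS14, a procollagen-cutting enzyme, fell by 0.94 (SE 0.085, adjusted p 0.00117 in limma), from 6.28 and 6.19 to 5.34 and 5.24. ADAMTS6 and ADAMTSL5 rose by 0.44 and 0.37 log2 units.

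Of 17 tested genes for maturation and trafficking of the proteases, 6 rose and 3 fell, 52.9% against 30.3% of all tested genes, with a median of 0.05 log2 units. FURIN, the convertase that removes the inhibitory prodomain of many ADAMs and of MMP14, went from 6.23 and 6.45 log2 units to 7.25 and 7.59, a rise of 1.08 (SE 0.142, adjusted p 0.00356 in limma). The convertase genes PCSK5 and PCSK7, named after their values were seen, rose by 0.65 and 0.33 log2 units (adjusted p 0.006 and 0.0242 in limma). RHBDF1 and RHBDF2 encode the iRhom proteins that carry ADAM17 to the surface, and they had log2 fold changes of 0.08 and -0.04 (adjusted p 0.607 and 0.822 in limma). RHBDF1 was near the level filter, between 4.47 and 4.65 log2 units on all arrays, and RHBDF2 lay between 6.14 and 6.27. Among 6 tetraspanins that escort ADAM10, TSPAN15 rose by 0.76 log2 units (adjusted p 0.0024 in limma), and TSPAN5, named after its value was seen, fell by 0.70 (adjusted p 0.0204). CD9, a tetraspanin that associates with ADAM17, fell by 1.14 (SE 0.124, adjusted p 0.00203 in limma), from 12.50 and 12.44 log2 units to 11.17 and 11.50. SNX9, a sorting nexin that binds the tail of ADAM9, rose by 0.97 log2 units (adjusted p 0.00447 in limma). BSG, which encodes the MMP inducer basigin, had a log2 fold change of 0.02 (adjusted p 0.917 in limma).

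Of 36 tested genes for proteins that ADAM10 and ADAM17 shed, 15 were called higher and 2 lower, with a median of 0.24 log2 units. That is 47.2% called against 30.3% of all tested genes, of which 14.2% were higher and 16.1% lower, and the difference was not tested. The largest changes were those of the Notch ligand gene JAG1 at -3.73, the receptor tyrosine kinase gene AXL at 2.62, the adhesion molecule gene ALCAM at 2.36 and the E-cadherin gene CDH1 at 2.27 log2 units. Of the EGF receptor ligands that ADAM17 or ADAM10 release, HBEGF, TGFA and BTC rose by 0.83, 0.60 and 0.64 log2 units, EGF by 1.40, and EREG had a log2 fold change of -0.27 and did not pass (adjusted p 0.299 in limma); these 5 were named after their values were seen. EGF was below the level filter on the control arrays, at 3.83 and 3.90 log2 units, and entered the test through its treated arrays, at 5.15 and 5.38. AREG, also an EGF receptor ligand gene of this list, had no cluster with that single symbol and is not analysed here. The same held for 6 of the 49 listed genes in all, AREG included. These are transcript levels, and shedding itself was not measured.

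**Figure D4:**
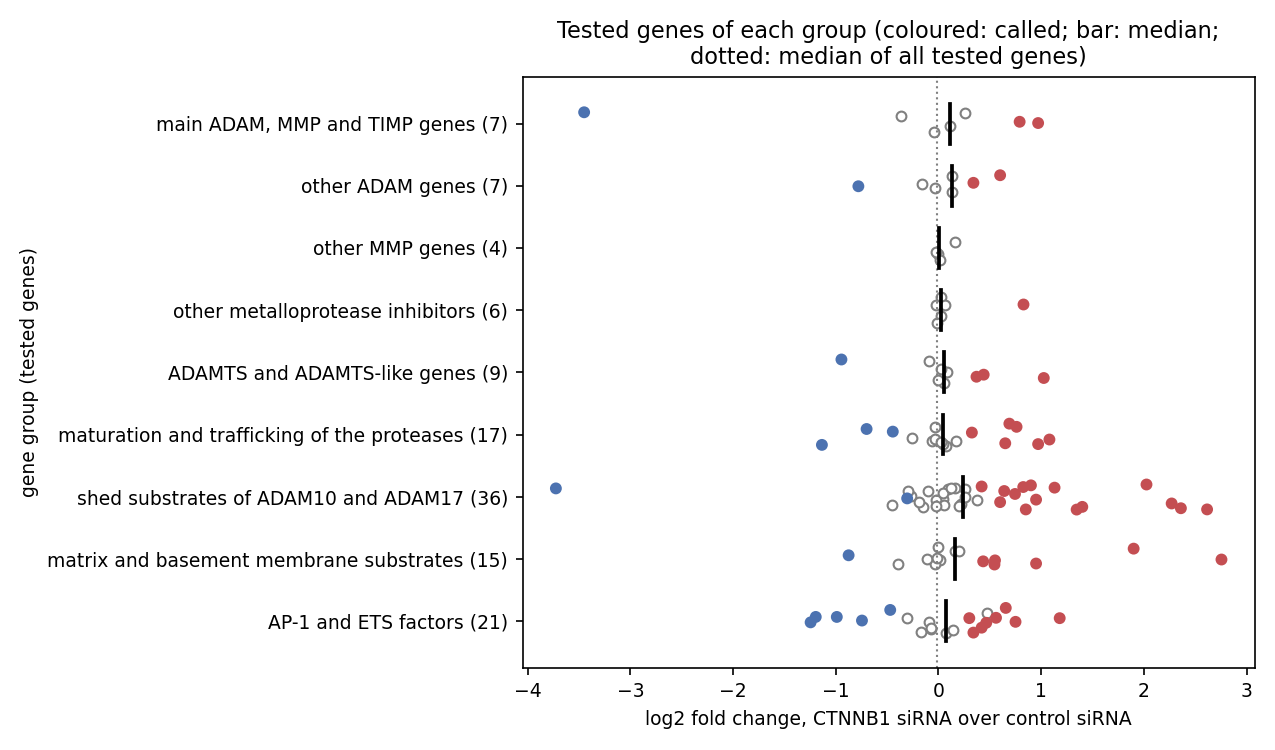
Log2 fold change after CTNNB1 siRNA relative to control (horizontal axis) for each tested gene of 9 gene groups (vertical axis, with the number tested). Coloured points passed an adjusted p of 0.05 in limma (red higher, blue lower), open points did not, bars are group medians, and the dotted line is the median of all tested genes. ADAM19 and JAG1 lie far to the left of all other points.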

How the data were processed

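Biotin-labelled total RNA was read on Affymetrix whole-transcript arrays, 1 per sample, per the labels. The deposited values are log2 levels per transcript cluster, made by the authors with Affymetrix Expression Console and RMA per the submitters' processing notes. The sources used here do not give versions, the RMA variant or the build of the clusters, and fold changes are on the deposited scale. The table held 67528 clusters, 23781 of them with 1 gene symbol. Symbols were updated through RefSeq (GRCh38.p14), and the cluster with the highest mean stood for each of 22411 genes.

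Genes with a mean above the 30th percentile (4.29 log2 units), 15679 in all, entered a 2-group fit without block (lmFit and eBayes of limma 3.58.1, R 4.3.3). P-values were 2-sided, adjusted by Benjamini-Hochberg over all tested genes. The number of arrays limits the precision. The labels call the replicates biological and do not say that they were separate cultures, so p-values measure only the spread between these samples. The code of the fit was run on simulated data with independent noise and known changes. That run checks the code and not the calls in these data. Figures were drawn with matplotlib 3.10.9.

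The genes of the group and all lists were chosen with earlier results of these data known. Named genes are those of the group, CTNNB1, up to 4 called genes per list with the largest change and 12 fixed by name, and others as stated. Alternatives covered normalization, level filter, variance model, cluster choice, a replicate block and leaving out each array. Protein sequences were not used here.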

Additional observations from a re-analysis of the deposited data

How the results depend on the processing

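The 3 calls among the 10 genes (ADAM17 and ADAM9 higher, ADAM19 lower) and their directions were kept in all 8 alternatives that used the 4 arrays, and TIMP1 passed in 1 of them, as stated. The median of the group lay between 0.03 and 0.19 log2 units with 1 array left out, and it was 0.035 without a level filter and 0.182 above the 50th percentile, against 0.11. With 1 array left out, the number of called genes was 0 higher and 0 lower in limma for the whole table (between 4732 and 4930 genes had an unadjusted p under 0.05), for the 10 genes (3 or 4 with an unadjusted p under 0.05), for the wider families and for each list. The medians then lay between 0.06 and 0.20 for other ADAM genes, between -0.03 and 0.073 for other MMP genes, between -0.01 and 0.05 for other inhibitors, between 0.025 and 0.10 for ADAMTS genes, between -0.02 and 0.11 for maturation genes, between 0.12 and 0.40 for shed substrates, between 0.065 and 0.215 for matrix substrates and between -0.065 and 0.16 for AP-1 and ETS factors, the lowest without control replicate 1.

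Fewer or more genes entered with another level filter. Without one, 1 other ADAM gene and 1 other MMP gene were called higher, where 2089 of all 22411 genes were. The medians were then 0.015 for other ADAM, 0.010 for ADAMTS, 0.013 for matrix and -0.060 for AP-1 and ETS genes. Above the 50th percentile, 1 other ADAM gene was called higher, where 2182 of all 11201 genes entered were. The medians were 0.175 for maturation, 0.545 for matrix and 0.30 for AP-1 and ETS genes. The median of 0.82 for other inhibitors was the value of RECK, the only inhibitor of that list left. The 0.37 for ADAMTS was the value of ADAMTSL5, left with ADAMTS14 and ADAMTS16 alone.

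Deviations of same-numbered arrays from their group means correlated with r = 0.27 across genes, but the labels do not pair the samples. With the replicate block, 3898 genes were called in place of 4756, with adjusted p-values of 0.0201, 0.0203 and 0.0341 in limma for ADAM19, ADAM17 and ADAM9. The block left 1 other ADAM gene higher (ADAM21 did not pass, adjusted p 0.0674), 1 shed substrate lower and 2 matrix substrates lower. For all these shifts the cause was not tested beyond the genes and arrays entered.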

Other observations

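Of 15 tested matrix and basement membrane genes, which encode substrates of the MMPs, 6 rose and 1 fell. Their median log2 fold change was 0.16, and 46.7% were called against 30.3% of all tested genes. LAMC1, the laminin gamma 1 chain, went from 8.83 and 9.38 log2 units to 11.71 and 12.01, a rise of 2.75 (SE 0.201, adjusted p 7.36e-04 in limma). LAMB2, the laminin beta 2 chain, rose by 0.95 log2 units (SE 0.090, adjusted p 0.00135 in limma), and THBS1, which encodes thrombospondin 1, by 1.90 (SE 0.146). FN1, which encodes fibronectin, went from 5.93 and 6.08 to 4.99 and 5.27 log2 units and fell by 0.88 (SE 0.12, adjusted p 0.00419 in limma).

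AP-1 and ETS factor genes, whose products bind MMP promoters, changed in both directions, with 8 of 21 tested genes higher and 5 lower, 61.9% against 30.3% of all tested genes, a difference that was not tested. FOSL1, an AP-1 subunit, rose by 1.18 log2 units (SE 0.082, adjusted p 6.70e-04 in limma), and FOSL2, JUN, JUND and ATF3, named after their values were seen, rose by between 0.42 and 0.75. FOS, FOSB, BATF and ATF2, also of this family and named after their values were seen, had log2 fold changes between -0.31 and -0.07 and did not pass. JUNB, named likewise, had a log2 fold change of 0.47 and did not pass (adjusted p 0.408 in limma). Its control arrays lay far apart, at 5.33 and 6.40 log2 units. ETS factor genes were found in both directions. ELF3, ELK3 and ETS1, named likewise, rose by 0.47, 0.34 and 0.30 log2 units (adjusted p 0.00988, 0.0243 and 0.0302 in limma). Of the PEA3 group, ETV1 went from 9.21 and 9.13 to 7.77 and 8.18 log2 units, a fall of 1.20 (SE 0.145, adjusted p 0.00282 in limma), and ETV4 and ETV5, also named after their values were seen, fell by 0.74 and 0.47 (adjusted p 0.00307 and 0.0107 in limma). ETS2 fell by 0.99 (SE 0.090) and ELK1 by 1.25 (SE 0.079, adjusted p 5.28e-04 in limma). The median of the list was 0.07 log2 units.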
